A study of Mus musculus with 4 samples.

Results

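The macrophage identity and activation genes were 10 genes, Cd68, Lyz2, Mrc1, Cd163, Cx3cr1, Ly6c2, Cd14, Spp1, Trem1 and Trem2, out of the 19308 genes listed for every library of the series. They were chosen by name, through the gene symbols deposited with the first WT library. The rule used no measured value, but the genes were proposed with earlier results of these data known. All 10 were found, and all 10 passed the filter on low counts. RNA sequencing was run on total RNA of frozen colonic mucosa of mice. There were 2 libraries of Itch KO mice, which lack the ubiquitin ligase gene Itch and whose mucosa was described as inflamed, and 2 libraries of wild-type C57BL/6 mice (WT). The labels record the state of all 4 libraries as inflammation, whereas the protocol text uses that word for the Itch KO mucosa. The age of the mice and the allele of Itch are unstated in the labels. Since no label ties a library to an animal of its own, p-values reflect only the spread between libraries, which may be technical. The question addressed here was how genes of resident macrophages and genes of recruited, inflammatory macrophages differed between inflamed Itch KO and WT mucosa.

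The lamina propria of the gut holds one of the largest macrophage populations of the body, which is replenished from blood monocytes. Monocytes that enter carry high Ly6C and lose it as they mature into resident cells that express the fractalkine receptor CX3CR1 and scavenger receptors and that clear dead cells and bacteria quietly. During colitis this maturation is interrupted, and cells with monocyte features that respond strongly to bacterial products accumulate. Of the members, Cd68 and Lyz2 mark macrophages of many states, Mrc1, Cd163 and Cx3cr1 belong to resident cells, and Ly6c2, Cd14, Spp1 and Trem1 belong to monocytes and inflammatory macrophages. Trem2, a lipid-sensing receptor gene found in both settings, was put in neither set.

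Promoter sequences from RefSeq (GRCm38.p6, 250 bases before to 50 bases after the start site) were matched by symbol for 9 of the 10 members, all but Cd14. Where several windows were listed for a gene, as for Spp1 and Ly6c2, the one nearest to its GENCODE start was taken. Windows are printed for the 3 inflammatory members with the highest ratios between groups and for Cd163, the member that was lower on average in Itch KO mucosa. Capitals mark GAGGAA on either strand, the core of the site bound by PU.1, the factor that directs myeloid development.
Trem1 promoter, chr17:48232489-48232788, plus strand: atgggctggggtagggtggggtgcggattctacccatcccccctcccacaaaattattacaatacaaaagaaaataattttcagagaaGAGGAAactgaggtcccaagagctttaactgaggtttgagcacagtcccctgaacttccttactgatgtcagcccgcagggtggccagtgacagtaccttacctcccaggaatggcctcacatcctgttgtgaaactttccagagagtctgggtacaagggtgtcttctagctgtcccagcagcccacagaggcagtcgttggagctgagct
Spp1 promoter, chr5:104434861-104435160, plus strand: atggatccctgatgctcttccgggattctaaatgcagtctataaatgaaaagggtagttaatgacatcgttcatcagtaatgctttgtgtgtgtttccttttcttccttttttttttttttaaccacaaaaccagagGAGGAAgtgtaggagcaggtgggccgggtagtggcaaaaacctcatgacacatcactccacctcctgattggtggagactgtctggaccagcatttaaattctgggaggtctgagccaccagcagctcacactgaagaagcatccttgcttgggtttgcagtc
Ly6c2 promoter, chr15:75111922-75112221, minus strand: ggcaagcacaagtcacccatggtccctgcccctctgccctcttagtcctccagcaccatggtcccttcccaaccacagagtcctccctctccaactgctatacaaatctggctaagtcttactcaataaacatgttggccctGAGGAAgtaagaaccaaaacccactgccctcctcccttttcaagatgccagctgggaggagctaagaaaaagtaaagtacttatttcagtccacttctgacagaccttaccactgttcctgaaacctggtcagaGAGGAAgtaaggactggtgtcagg
Cd163 promoter, chr6:124304401-124304700, plus strand: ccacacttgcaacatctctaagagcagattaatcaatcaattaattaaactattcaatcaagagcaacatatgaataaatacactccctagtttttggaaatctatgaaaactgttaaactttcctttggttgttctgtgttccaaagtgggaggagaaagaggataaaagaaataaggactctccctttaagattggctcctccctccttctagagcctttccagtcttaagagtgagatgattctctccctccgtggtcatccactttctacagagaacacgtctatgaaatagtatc
The Trem1 and Spp1 windows each held 1 match, starting at 162 and 113 bases before the start site. The Ly6c2 window held 2 matches and the Cd163 window held none. GAGGAA was found in 6 of the 9 matched member promoters, in both resident and inflammatory genes, and in 28.3% of 32841 promoter windows of the same length. The AP-1 site, TGACTCA or TGAGTCA on either strand, was found in 1 of the 9, that of Cd68, and in 5.2% of all windows. The matches are letters in a window and do not show that a factor was bound.

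Across the 19308 genes the libraries held 8181193 and 9463759 counts in Itch KO mucosa and 9674531 and 12199709 counts in WT mucosa. Itch checked the labels, at 11.9 and 13.4 CPM (counts scaled to a common library size with TMM factors) in Itch KO libraries and 204 and 183 CPM in WT libraries. WT replicate 1 stood apart from the rest. Its 8 squamous epithelium markers summed to 606 CPM, against 17.7 and 20.8 CPM in the Itch KO libraries and 13.8 CPM in WT replicate 2, and Krt10 was at 8.72 and 7.95 CPM in Itch KO against 91 and 10.5 CPM in WT. The 10 epithelial markers summed to 2091 and 1637 CPM in Itch KO libraries and 1817 and 1658 CPM in WT libraries, so colonic epithelium was present in every library. Among them Cdx2, an intestinal gene, was at 24.3 CPM in WT replicate 1 and 140 CPM in WT replicate 2, against 130 and 115 CPM in Itch KO. Counts were flat at the upper end, with 9389 as the maximum for a gene in any library and 0.453% to 0.633% of a library in its top 10 genes. The parts of this flatness and of the squamous signal in the size of the differences were not tested. In bulk tissue, fewer cells of a type and less RNA per cell cannot be told apart.

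Of the inflammatory macrophage genes, Spp1, Trem1 and Ly6c2 stood far higher in Itch KO than in WT mucosa, and Cd14 stood moderately higher. Resident genes differed less on average and went both ways. Mean levels of the 4 inflammatory members in Itch KO mucosa were 1.95 times (Cd14) to 26.2 times (Spp1) those of WT, and the 3 resident members were at 0.579 times (Cd163) to 1.41 times (Mrc1). For 8 of the 10 members both Itch KO libraries were above both WT libraries, for none were both below, and Mrc1 and Cd163 overlapped. That separation held upward for 30.0% and downward for 26.0% of the 16956 genes tested. The median log2 fold change (Itch KO over WT) was 1.00 over the 10 members, with 9 of the 10 above 0, and 0.01 over all genes, of which 50.6% were above 0.

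By edgeR's quasi-likelihood test, adjusted over all 16956 genes, none of the 10 members was called at 0.05, and 0% of all genes were called in either direction. Not even Itch, the gene that the Itch KO mice lack, was called (log2 fold change -3.93, edgeR adjusted p = 0.0922). That a member was not called by this fit therefore says little about the member. At an unadjusted p below 0.05, 5 of the 10 members were higher and 0 lower. Over all genes 1729 were higher there (10.2%) and 1614 lower (9.52%). limma voom called 0 genes, with 3402 at an unadjusted p below 0.05. DESeq2 called 4 of the 10 members higher and 0 lower, namely the 4 inflammatory members, while it called 5.24% of all genes higher and 4.76% lower. Without Itch KO replicate 2 DESeq2 called no member (0.895% of genes higher), and without WT replicate 1 it called 6, adding Cd68 and Trem2 (4.59% of genes higher). Without WT replicate 2 (3.32% of genes higher) or without Itch KO replicate 1 (3.72%) it called 3, losing Cd14. The separation upward held for 9 members without WT replicate 1 (40.0% of genes) or Itch KO replicate 1 (41.0%), and for 8 without WT replicate 2 (40.1%) or Itch KO replicate 2 (41.0%).

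**Figure D1:**
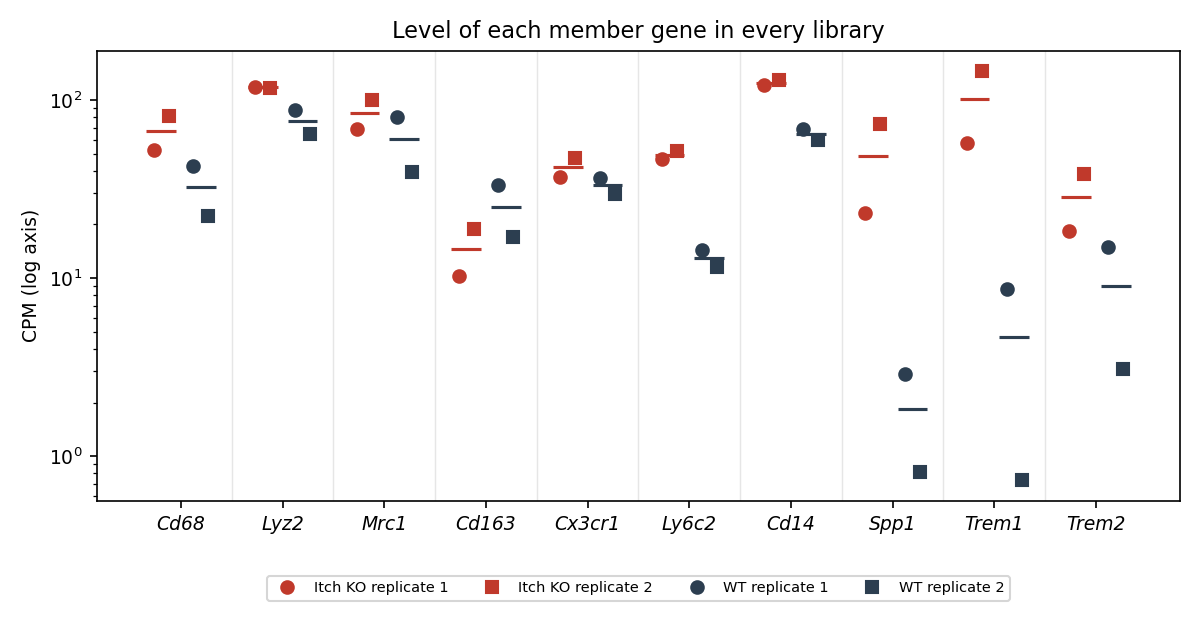
CPM of each of the 10 member genes (log axis) in the 2 Itch KO libraries (red) and the 2 WT libraries (dark), with horizontal lines at the group means. Spp1 and Trem1 showed the widest gaps, from 23.1 CPM or more in Itch KO to 8.64 CPM or less in WT, whereas the libraries of Mrc1 and Cd163 overlapped.

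Cd68 and Lyz2, the genes shared by macrophages of many states, were moderately higher. Cd68 (ENSMUSG00000018774, GRCm38 chr11:69664213-69666153, minus strand) encodes a glycoprotein of macrophage lysosomes. It was at 52.2 and 81.2 CPM in Itch KO libraries and 42.5 and 22.2 CPM in WT libraries. The groups did not overlap, but the gap between Itch KO replicate 1 and WT replicate 1 was small. The log2 fold change was 1.05 with an SE of 0.41 (edgeR adjusted p = 0.272), and it was 1.61 without WT replicate 1 and 0.65 without WT replicate 2. Lyz2 (ENSMUSG00000069516, chr10:117277331-117282321, minus strand), the lysozyme of macrophages and granulocytes, was at 118 and 117 CPM in Itch KO and 88.2 and 64.1 CPM in WT mucosa. The Itch KO libraries were nearly equal and both were above WT, with a log2 fold change of 0.63 and an SE of 0.19 (edgeR adjusted p = 0.208). Per kb of exon Lyz2 was at 89.6 and 89.1 CPM in Itch KO libraries. That was near the epithelial gene Krt20, whose mean over the 4 libraries was 90.6 CPM per kb. Counts were flat at the upper end, and whether this narrowed the spread of Lyz2 or Cd14 was not tested. Lyz1, the neighbouring lysozyme gene of Paneth cells, shares 15.4% of the 50-base words of Lyz2 transcripts, so reads could be split between them. Lyz1 was at 35 and 46 CPM in Itch KO and 71.2 and 16.2 CPM in WT libraries, and thus overlapped.

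The resident genes did not separate as a set. Mrc1 (ENSMUSG00000026712, chr2:14229392-14332057, plus strand) encodes the mannose receptor CD206. It was at 68.7 and 100.2 CPM in Itch KO and 80.4 and 39.6 CPM in WT mucosa, so WT replicate 1 lay between the Itch KO libraries. Its log2 fold change was 0.49 with an SE of 0.41 (edgeR adjusted p = 0.532), and ranged from 0.07 without WT replicate 2 to 1.11 without WT replicate 1. Cd163 (ENSMUSG00000008845, chr6:124304656-124330527, plus strand), the scavenger receptor for haemoglobin bound to haptoglobin, was at 10.3 and 18.8 CPM in Itch KO and 33.2 and 17.1 CPM in WT mucosa. WT replicate 2 fell inside the Itch KO range, and the log2 fold change of -0.79 had an SE of 0.52 (edgeR adjusted p = 0.45). It was -0.21 without WT replicate 1 and -1.27 without Itch KO replicate 2.

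Cx3cr1 (ENSMUSG00000052336, chr9:119901616-120069879, minus strand), the fractalkine receptor of resident gut macrophages, was at 36.98 and 47.5 CPM in Itch KO and 36.5 and 29.8 CPM in WT libraries. Itch KO replicate 1 and WT replicate 1 were almost equal, and the log2 fold change was 0.35 with an SE of 0.24 (edgeR adjusted p = 0.454). Its ligand gene Cx3cl1 was at 153 and 116 CPM in Itch KO and 178 and 154 CPM in WT mucosa, with a log2 fold change of -0.30 (SE 0.19, edgeR adjusted p = 0.424). Of the bases in Cx3cr1 exons 1.73% overlap an annotated gene on the other strand.

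The monocyte gene Ly6c2 and the lipopolysaccharide co-receptor gene Cd14 showed the tightest differences of the inflammatory set. Ly6c2 (ENSMUSG00000022584, chr15:75108158-75111970, minus strand) encodes the Ly6C antigen of classical monocytes. It was at 46.7 and 51.5 CPM in Itch KO and 14.4 and 11.5 CPM in WT mucosa. Both groups were narrow and far apart, 49.1 ± 3.43 against 12.9 ± 2.06 CPM (SD, n = 2 each). A log2 fold change of 1.92 resulted, with an SE of 0.25, and it stayed between 1.77 and 2.12 without single libraries. The edgeR adjusted p was 0.123 and that of DESeq2 9.33e-06, and over all alternatives the adjusted p reached 0.421. Ly6c1, a paralog expressed by endothelium, shares 13.9% of the 50-base words of Ly6c2 transcripts, so the counts of this pair are uncertain. Ly6c1 was at 65.2 and 54.9 CPM in Itch KO and 45 and 25.8 CPM in WT libraries, a log2 fold change of 0.76 (SE 0.32, edgeR adjusted p = 0.292). Reads per kb of Ly6c2 were 0.438 and 0.574 of those of Ly6c1 in Itch KO and 0.196 and 0.272 in WT libraries, so the ratio was higher in both Itch KO libraries. The 10 endothelial markers, Ly6c1 among them, summed to 651 and 1086 CPM in Itch KO and 717 and 523 CPM in WT. Of the 10, 3 were higher without overlap, as were 30.0% of all genes tested.

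Cd14 (ENSMUSG00000051439, chr18:36725067-36726798, minus strand), which hands lipopolysaccharide to the TLR4 receptor, was at 121 and 129 CPM in Itch KO and 69.1 and 59.4 CPM in WT mucosa. The means were 125 ± 5.46 and 64.3 ± 6.88 CPM (SD, n = 2 each), and the log2 fold change was 0.96 with an SE of 0.14. The edgeR adjusted p was 0.123 and that of DESeq2 0.00121, and over all alternatives the adjusted p reached 0.421. Without single libraries the log2 fold change stayed between 0.85 and 1.10.

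Spp1 and Trem1 had the highest fold changes and the largest SEs of the members. Spp1 (ENSMUSG00000029304, chr5:104435118-104441050, plus strand) encodes osteopontin, a secreted matrix protein and cytokine of activated macrophages that epithelial cells can also make. It was at 23.1 and 73.7 CPM in Itch KO and 2.88 and 0.815 CPM in WT mucosa, from 188 and 714 counts against 27 and 10. Every Itch KO value was several times every WT value, yet the Itch KO libraries themselves differed 3.19 times. The log2 fold change was 4.73 with an SE of 0.96, and 3.66 without Itch KO replicate 2. The edgeR adjusted p was 0.137 and that of DESeq2 7.2e-07, with 0.421 as the highest over all alternatives. In GENCODE M21 an annotated gene on the same strand overlaps 18.8% of the exonic bases of Spp1. The annotation used for counting is unstated, so whether reads there were left unassigned is not known.

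Trem1 (ENSMUSG00000042265, chr17:48232768-48246924, plus strand), an activating receptor of monocytes and neutrophils that amplifies inflammatory signals, was at 57.3 and 145 CPM in Itch KO and 8.64 and 0.733 CPM in WT mucosa. WT replicate 2 held 9 counts and WT replicate 1 held 81, an 11.8-fold difference in level within one group. The log2 fold change was 4.47 with an SE of 1.22 (edgeR adjusted p = 0.185, DESeq2 adjusted p = 7.16e-05, and up to 0.455 over all alternatives). It was 7.11 without WT replicate 1 and 3.55 without WT replicate 2. Trem2 (ENSMUSG00000023992, chr17:48346401-48354147, plus strand), a lipid-sensing receptor of the same family that signals through the same adaptor, was at 18.3 and 38.5 CPM in Itch KO and 15 and 3.10 CPM in WT mucosa. Itch KO replicate 1 was only slightly above WT replicate 1. The log2 fold change was 1.65 with an SE of 0.89 (edgeR adjusted p = 0.369), and it was 3.22 without WT replicate 1 and 0.92 without WT replicate 2.

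**Figure D2:**
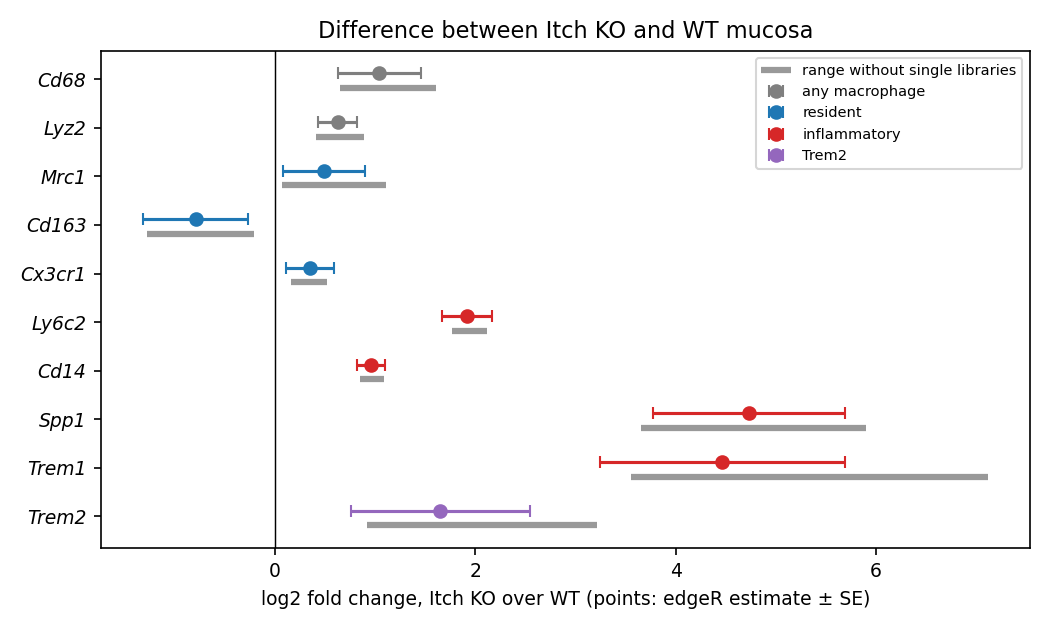
Log2 fold change of each member, Itch KO over WT (points, edgeR estimate with its SE, coloured by set), with the range when single libraries were left out (grey bars). Only Cd163 lay below 0, at -0.79, and the grey bars of all 10 genes stayed on 1 side of 0.

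The libraries within a group had a common order. All 10 members were higher in WT replicate 1 than in WT replicate 2, by 1.16 times (Cd14) to 11.8 times (Trem1). Of the 10 members 9 were higher in Itch KO replicate 2 than in Itch KO replicate 1, by up to 3.19 times (Spp1), with Lyz2 the exception at 0.994. The median size of the log2 ratio between libraries of one group was 0.59 over the members in Itch KO and 0.94 in WT, against 0.29 and 0.26 over all genes tested. The members thus varied more between libraries of the same genotype than the typical gene did. Neutrophil markers had the same order in sum, with 14 markers at 576 and 1002 CPM in Itch KO and 268 and 26.2 CPM in WT libraries. The order was not particular to them. Fibroblast markers summed to 1326 and 2001 CPM in Itch KO and 1681 and 1037 CPM in WT. Endothelial markers summed to 651 and 1086 CPM in Itch KO and 717 and 523 CPM in WT. Epithelial markers ran the other way in Itch KO, at 2091 and 1637 CPM, and T and NK cell markers in WT, at 81.6 and 113 CPM. Of the 12 neutrophil markers tested, 10 were higher in both Itch KO libraries, and Ly6g and Ltf overlapped. Mpo and Elane did not pass the filter on low counts, and Elane was at 0 in WT replicate 2. Over all genes tested 30.0% were higher in both Itch KO libraries than in both WT libraries. Retnlg, a neutrophil gene, was at 39.6 and 50 CPM in Itch KO and 5.97 and 3.91 CPM in WT mucosa. Neutrophils also transcribe Trem1, Cd14 and Lyz2, and their part in the differences of these genes was not tested.

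Per kilobase of exon, Lyz2, Cd14 and Cd68 ranked 1, 2 and 3 in both groups. Trem1 and Spp1 ranked 4 and 5 in Itch KO mucosa, at 33.8 and 29.4 CPM per kb, and 9 and 10 in WT mucosa, at 1.56 and 1.12 CPM per kb. Cd163 ranked 10 in Itch KO mucosa and 7 in WT mucosa, at 2.67 and 4.60 CPM per kb. Neighbours whose library ranges overlapped, and whose order is therefore not resolved, were Cd68 and Trem1, Trem1 and Spp1, and Spp1 and Ly6c2 in Itch KO. In WT they were Mrc1 and Cx3cr1, Ly6c2 and Cd163, Trem2 and Trem1, and Trem1 and Spp1.

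The balance of the sets was also read within each library, on the log2 CPM per kb scale. The mean of the 3 resident genes was 2.48 and 3.06 in Itch KO and 3.10 and 2.35 in WT libraries, which overlapped. The mean of the 4 inflammatory genes was 4.58 and 5.39 in Itch KO and 2.55 and 1.21 in WT libraries. Resident minus inflammatory was thus -2.10 and -2.33 in Itch KO libraries and 0.55 and 1.14 in WT libraries. The sign differed between the genotypes in all 4 libraries, and the gap between groups was wider than the gap within either. On the scale of fold changes, the median of the resident genes minus that of the inflammatory genes was -2.84, a description with no test, and it was -3.48 without WT replicate 1.

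**Figure D3:**
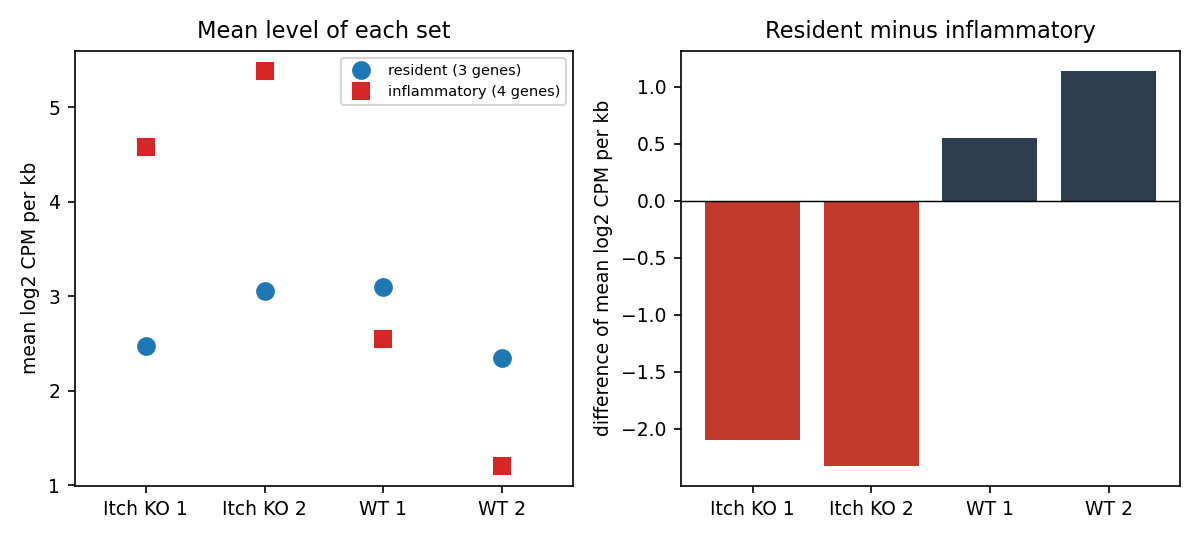
Left, mean log2 CPM per kb of the 3 resident genes (blue circles) and the 4 inflammatory genes (red squares) in each library; right, the difference between them as bars, Itch KO in red and WT dark. The difference was -2.10 and -2.33 in Itch KO and 0.55 and 1.14 in WT libraries.

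Ratios between single members, chosen after their values were seen, are described without a test. Trem1 stood at 5.16 and 6.22 times Trem2 per kb in Itch KO and at 0.948 and 0.391 times in WT libraries. Ly6c2 stood at 2.08 and 1.78 times Cx3cr1 per kb in Itch KO and at 0.649 and 0.633 times in WT libraries. For both pairs the groups were well apart. Within the resident set, Cd163 stood at 0.175 and 0.219 times Mrc1 per kb in Itch KO and 0.481 and 0.504 times in WT libraries, although neither gene separated the groups by itself. The ratio of Cd14 to Mrc1, an inflammatory to a resident gene, was 6.49 and 4.74 in Itch KO and 3.16 and 5.52 in WT libraries and overlapped. Against Cd68, Cx3cr1 was at 0.198 and 0.163 in Itch KO and 0.240 and 0.374 in WT, Mrc1 at 0.260 and 0.243 in Itch KO and 0.374 and 0.351 in WT, and Cd163 at 0.0455 and 0.0533 in Itch KO and 0.180 and 0.177 in WT. Per unit of Cd68 the 3 resident genes were therefore lower in both Itch KO libraries. Of the inflammatory genes, Ly6c2 was at 0.410 and 0.291 of Cd68 in Itch KO and 0.156 and 0.237 in WT. Spp1 was at 0.337 and 0.693 in Itch KO and 0.0517 and 0.0279 in WT, and Trem1 at 0.460 and 0.750 in Itch KO and 0.0854 and 0.0138 in WT. These 3 were higher per unit of Cd68 in both Itch KO libraries. Cd14 overlapped, at 1.69 and 1.15 of Cd68 in Itch KO and 1.18 and 1.94 in WT, and so did Trem2, at 0.0891 and 0.121 in Itch KO and 0.0900 and 0.0354 in WT.

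**Figure D4:**
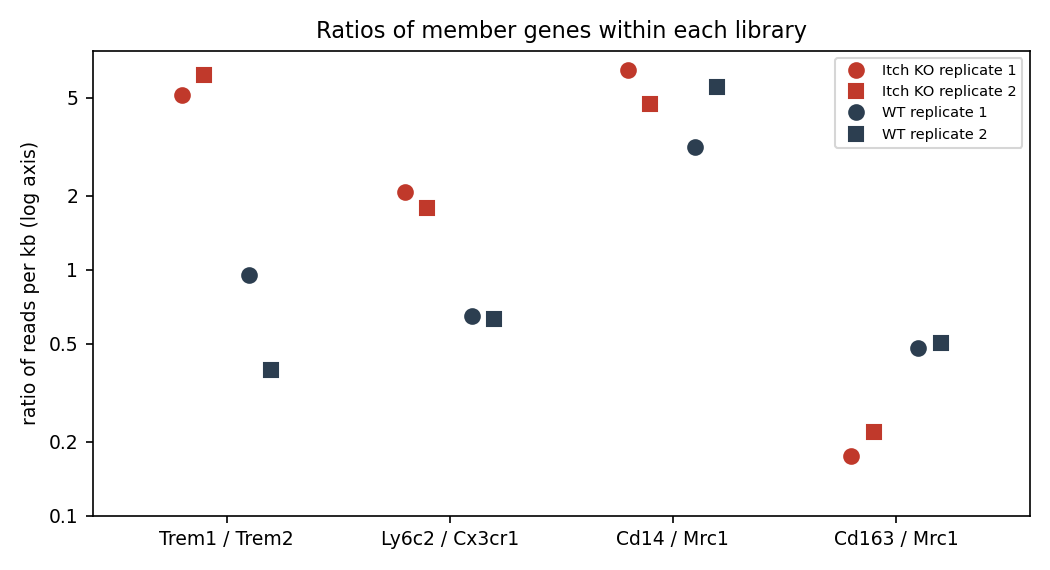
Ratio of reads per kb between pairs of members (log axis) in the 2 Itch KO libraries (red) and the 2 WT libraries (dark). The Itch KO libraries lay above WT for Trem1 over Trem2 and Ly6c2 over Cx3cr1, below WT for Cd163 over Mrc1, and overlapped WT for Cd14 over Mrc1.

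Other genes of resident macrophages were mixed. Of 21 tested genes of a list of 22, 7 were higher without overlap, 3 lower and 11 overlapped, with a median log2 fold change of 0.34. None was called by edgeR, and DESeq2 called 2 higher, Csf1r and Il10ra, and 2 lower, Hpgds and Mertk. Among all genes tested, 30.0% were higher without overlap and 26.0% lower, and DESeq2 called 5.24% higher and 4.76% lower. The upward count of this list was thus near the share over all genes. Il10ra, the receptor chain through which IL-10 restrains gut macrophages, was at 82.6 and 149 CPM in Itch KO and 28.5 and 17.5 CPM in WT mucosa (log2 fold change 2.33, SE 0.41, edgeR adjusted p = 0.129). Hpgds, a prostaglandin D synthase, was at 21.3 and 20.9 CPM in Itch KO and 47.5 and 47.1 CPM in WT mucosa (log2 fold change -1.17, SE 0.20, edgeR adjusted p = 0.127). The libraries of each group were almost equal. Mertk, a receptor for the uptake of dying cells, was at 63 and 54.3 CPM in Itch KO and 88.9 and 166 CPM in WT mucosa. Gas6, the gene of a ligand of MERTK, had the highest CPM of the list over the 4 libraries and overlapped, at 187 and 159 CPM in Itch KO and 197 and 178 CPM in WT mucosa. Within Itch KO mucosa the mean CPM of Csf1r, the receptor for a macrophage growth factor, was higher than that of Gas6, at 155 and 208 CPM in Itch KO and 89.9 and 61.2 CPM in WT mucosa. The complement genes C1qa, C1qb and C1qc, made by macrophages, were higher in both Itch KO libraries, with log2 fold changes of 0.68 to 0.82.

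Other genes of recruited monocytes and inflammatory macrophages were higher almost throughout. All 20 were tested, 17 were higher without overlap, 0 lower, and the median log2 fold change was 2.79. edgeR called none and DESeq2 called 15 higher. The shares over all genes tested were 30.0% higher without overlap and 5.24% called higher by DESeq2. Fpr1, a receptor for bacterial formyl peptides, was at 18.8 and 50 CPM in Itch KO and 1.39 and 0.652 CPM in WT mucosa (log2 fold change 5.08, SE 0.79, edgeR adjusted p = 0.123). Ccr2, the chemokine receptor that brings monocytes out of the marrow, was at 94.2 and 169 CPM in Itch KO and 39.9 and 22.6 CPM in WT mucosa, and was chosen after its values were seen. Thbs1, thrombospondin, which had the highest CPM of the list over the 4 libraries, not scaled to length, was at 167 and 288 CPM in Itch KO and 158 and 147 CPM in WT mucosa. Within Itch KO mucosa the CPM of Nos2, the inducible nitric oxide synthase, was higher, at 294 and 324 CPM in Itch KO and 58 and 24.4 CPM in WT mucosa. Plac8 had the lowest fold change and overlapped, at 83.3 and 69.5 CPM in Itch KO and 71.6 and 55.3 CPM in WT mucosa. Several genes of this list are also transcribed by neutrophils, whose markers are given above.

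Most partners of the TREM receptors were higher. Markers of B cells and most of those of neutrophils were higher too, and the part of such cells in this list was not tested. Of 14 tested genes of a list of 15, 13 were higher without overlap and 1 overlapped, with a median log2 fold change of 1.17. DESeq2 called 9 higher. The shares over all genes were 30.0% higher without overlap and 5.24% called higher by DESeq2. Tyrobp, the adaptor DAP12 that carries the signal of TREM1 and TREM2, was at 46.8 and 51 CPM in Itch KO and 26.4 and 17.8 CPM in WT mucosa. Syk, the kinase recruited by that adaptor, was at 258 and 250 CPM in Itch KO and 158 and 134 CPM in WT mucosa (log2 fold change 0.80, SE 0.15, edgeR adjusted p = 0.131). Trem3, a family member in mice, was at 7.5 and 28.1 CPM in Itch KO and 0.533 and 0.163 CPM in WT mucosa (log2 fold change 5.67, SE 1.10, edgeR adjusted p = 0.131), and shares 0 of the 50-base words of Trem1. Adam10, a protease that sheds TREM2, overlapped, at 206 and 176 CPM in Itch KO and 208 and 176 CPM in WT mucosa.

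Partners of CD14 went both ways. Of 13 genes tested, 7 were higher without overlap, 2 lower and 4 overlapped, with a median log2 fold change of 0.21, and DESeq2 called 1, Lbp, higher. For comparison, 30.0% of all genes tested were higher without overlap, 26.0% were lower, and DESeq2 called 5.24% higher. Lbp, the carrier protein that brings lipopolysaccharide to CD14, was at 81.1 and 93.3 CPM in Itch KO and 39.6 and 22.7 CPM in WT mucosa. Tlr4, the receptor, was at 87.7 and 86.9 CPM in Itch KO and 73.6 and 62.8 CPM in WT mucosa. Ticam2, an adaptor of TLR4, was at 7.74 and 12.5 CPM in Itch KO and 4.59 and 2.04 CPM in WT mucosa (log2 fold change 1.61, SE 0.65, edgeR adjusted p = 0.274). Cd36, a fatty acid and lipoprotein receptor, was at 15.1 and 42.1 CPM in Itch KO and 55.4 and 79 CPM in WT mucosa (log2 fold change -1.23, SE 0.55, edgeR adjusted p = 0.308). Irak1, a kinase downstream of TLR4, overlapped, at 144 and 128 CPM in Itch KO and 133 and 132 CPM in WT mucosa.

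Among ligands, receptors and growth factors of the members, 6 of 14 were higher without overlap, 1 was lower and 7 overlapped, with a median log2 fold change of 0.72. DESeq2 called 4 higher. Of all genes tested, 30.0% were higher without overlap, 26.0% were lower, and DESeq2 called 5.24% higher. Ccl2, the chemokine ligand of CCR2, was at 29.5 and 56.6 CPM in Itch KO and 7.47 and 1.22 CPM in WT mucosa (log2 fold change 3.32, SE 0.98, edgeR adjusted p = 0.199). Hp, haptoglobin, whose complex with haemoglobin CD163 takes up, was at 76.8 and 113 CPM in Itch KO and 11.5 and 17.4 CPM in WT mucosa. Hmox1, the enzyme that degrades haem, was at 55 and 102 CPM in Itch KO and 31.9 and 24.2 CPM in WT mucosa. Both had Itch KO libraries above WT, whereas Cd163 overlapped. Itgb1, an integrin chain of osteopontin receptors, overlapped, at 240 and 247 CPM in Itch KO and 251 and 206 CPM in WT mucosa.

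Lysosome and phagocyte oxidase genes were higher in part. Of 15 genes tested, 10 were higher without overlap, 0 lower and 5 overlapped, with a median log2 fold change of 0.27, and DESeq2 called 4 higher. Beside these counts, 30.0% of all genes tested were higher without overlap, 26.0% were lower, and DESeq2 called 5.24% higher. Ncf4, a subunit of the phagocyte NADPH oxidase, was at 56.2 and 85.9 CPM in Itch KO and 13 and 10.8 CPM in WT mucosa (log2 fold change 2.58, SE 0.30, edgeR adjusted p = 0.123). Ctsb, a lysosomal protease with the highest CPM of the list over the 4 libraries, overlapped, at 241 and 242 CPM in Itch KO and 242 and 195 CPM in WT mucosa.

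**Figure D5:**
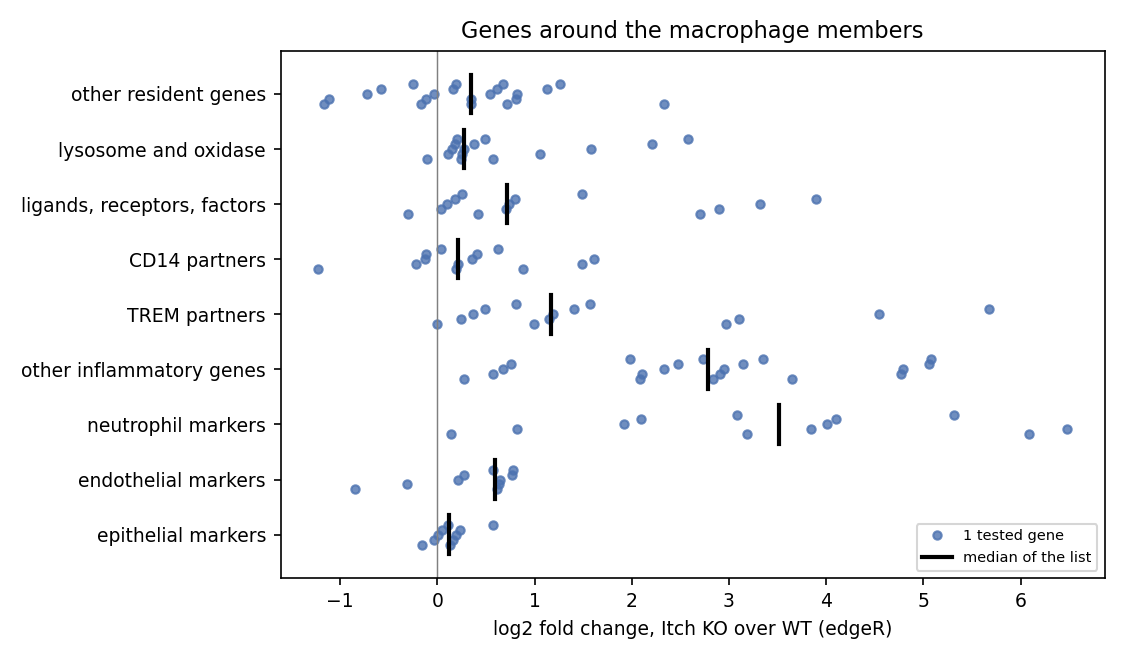
Log2 fold change, Itch KO over WT, of every tested gene (points) in 9 lists, with each list's median as a black bar. Other inflammatory genes (median 2.79) and neutrophil markers (median 3.51) lay far to the right of other resident genes (median 0.34) and epithelial markers (median 0.12).

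Markers of other cells are given by count, as measured facts. Beside them stand 30.0% of all genes tested that were higher without overlap and 26.0% that were lower. All 7 B cell markers were higher without overlap, with Cd79a at 72.4 and 73 CPM in Itch KO and 6.83 and 7.5 CPM in WT mucosa. Of 8 T and NK cell markers 6 were higher without overlap, with Cd3d at 20.5 and 29.1 CPM in Itch KO and 6.19 and 10.5 CPM in WT mucosa. The NK markers Ncr1 and Klrb1c were the 2 that overlapped, with log2 fold changes of -0.90 and -0.37. Of 11 dendritic cell markers 6 were higher without overlap, with Ccr7 at 22.7 and 52.2 CPM in Itch KO and 3.63 and 3.91 CPM in WT mucosa. The other 5, Zbtb46, Xcr1, Clec9a, Itgae and Cd209a, overlapped, with log2 fold changes from -0.25 (Cd209a) to 0.68 (Zbtb46). Epithelial markers had a median log2 fold change of 0.12, with 0 of 10 higher without overlap and Car1 lower, at 107 and 97 CPM in Itch KO and 112 and 116 CPM in WT mucosa. Of 8 fibroblast markers 1, Thy1, was higher without overlap, and of the endothelial markers Plvap had the smallest p, at 114 and 147 CPM in Itch KO and 81.7 and 70.9 CPM in WT mucosa. The parts of these cells in the members' differences were not tested.

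For each member, the gene with the most similar profile over the 4 libraries was sought among 13652 genes averaging 5 CPM or more, by Euclidean distance between centred log2 CPM. The nearest profiles were those of Rras for Cx3cr1 (distance 0.04), Psmb9 for Cd14 (0.07), Ckap4 for Lyz2 (0.07), Col1a1 for Mrc1 (0.10) and Hhex for Cd68 (0.10). They were Mreg for Cd163 (0.13), Lin28a for Spp1 (0.15), Lpxn for Ly6c2 (0.17), Fgf7 for Trem2 (0.23) and Cxcl2 for Trem1 (0.38). Col1a1, the collagen gene nearest to Mrc1, was at 271 and 433 CPM in Itch KO and 337 and 167 CPM in WT mucosa, the same order of libraries. With 4 libraries many genes share a profile, and the distances describe these libraries.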

How the data were processed

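RNA of colonic mucosa from 2 Itch KO and 2 WT libraries was grouped by title. The authors deposited raw counts of reads per gene. Per the submitters' processing notes the build was GRCm38 (mm10), and HTSeq 0.6.1, SAMtools 0.1.19, TopHat2 and CASAVA 1.8.2 were used. No source used here gives the strand setting, the annotation release or any removal of duplicates. WT replicate 1 has 19308 genes in its file and the other libraries 39179, so the 19308 shared genes were used, which hold 97.3% to 97.7% of the gene counts of the longer files. Of these, 19084 had a name in the gene table and 19106 an exonic length (union of exons) in GENCODE M21 on GRCm38. Summary lines for reads outside genes (18.2% to 23.0% of a file) and ambiguous reads (2.67% to 3.03%) stayed out of library sizes and tests.

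Groups were compared in R 4.3.3 with the quasi-likelihood test of edgeR 4.0.16 (TMM factors, robust empirical Bayes, filterByExpr with min.count 10, genotype as sole term, two-sided), with Benjamini-Hochberg adjustment over 16956 genes at 0.05. The SE of a log2 fold change is its size divided by the root of the F statistic. With 2 residual degrees of freedom, the estimated biological coefficient of variation came to 34.8%. DESeq2 1.42.0, limma 3.58.1 voom, with and without cyclic loess, other normalizations, other filters, a replicate block and single libraries left out were alternatives. Of these fits only the main edgeR fit and DESeq2 were run on simulated data, and the outcome is not given here. Log2 CPM used a prior count of 2. The libraries of a group differed far beyond sampling noise, with chi-square values per degree of freedom of 24.98 in Itch KO and 32.9 in WT. The members and gene lists were chosen with earlier results of these data known. The text names all members and Itch. From each list around the members it names the genes with the highest and lowest log2 fold change (mean of at least 5 CPM) and the highest mean level, and from each list of other cells the gene with the smallest p. It also names paralogs that may share reads and the nearest profile of each member. Other genes were chosen after their values were seen.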

Additional observations from a re-analysis of the deposited data

How the results depend on the processing

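Under the 13 alternatives the log2 fold changes of the 10 members kept their direction in all 130 values. Of these, 4 passed the threshold where edgeR's did not, those of Ly6c2, Cd14, Spp1 and Trem1 with DESeq2. DESeq2 called 889 genes higher and 807 lower and 4 members, whereas edgeR and both limma voom fits called 0 genes. The cause was not tested. The median of the resident minus that of the inflammatory fold changes ranged from -3.48 to -2.58 without single libraries. Leaving out single libraries, DESeq2 called 0 to 6 members higher and 0 lower, and the number of members above WT in every Itch KO library ranged from 8 to 9 and of those below from 0 to 1, that 1 being Cd163 without WT replicate 2 or without Itch KO replicate 2, where 35.3% and 37.9% of all genes were below. A lone library of a group was assumed to vary like the other group. Equal replicate numbers do not pair the libraries by any label, and their deviations from the group means correlated at 0.05 over genes; with the replicate block 0 genes and 0 members were called. The depth of 8181193 to 12199709 counts left WT replicate 2 with 9 counts of Trem1 and 10 of Spp1, so their fold changes are uncertain in size.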
